A study of Glycine max with 26 samples.

Results

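Whole soybean seeds (Glycine max, cultivar Williams 82, seed coats included) collected in the early subjective night were compared with seeds collected in the early subjective day. The night group held the 4 arrays of 40 and 64 h, 16 h after subjective dawn, and the day group the 4 arrays of 28 and 52 h, 4 h after subjective dawn, out of 26 arrays in all. Time is counted in hours after the start of constant light, and subjective dawn and dusk are the times at which lights would have turned on and off had the earlier cycles gone on. All plants had been entrained to 12 h of light and 12 h of dark and then moved to constant light of 350 µmol m-2 s-1, at 25 °C and 75% relative humidity, so both groups were in the light and differed in labelled time alone. Seeds were taken at 5 weeks after flowering, and each of the 2 replicates of a time pooled 8 seeds from 3 plants. RNA was extracted with a CTAB buffer, and biotin-labelled cRNA from 2.5 µg of total RNA was hybridised to single-colour oligonucleotide arrays. Whether the 2 pools of a time were drawn from separate plants is not stated in the labels. The p-values therefore reflect the scatter among these pools alone, and some of that scatter may be technical.

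The circadian clock of plants is a loop of transcription factors in which morning-expressed MYB-type factors such as LHY and evening-expressed pseudo-response regulators repress one another. It goes on cycling in constant light and times the transcription of genes for photosynthesis, starch use, lipid oxidation and secondary metabolism, so that each set of transcripts peaks at its own time of day. In filling legume seeds the green embryo carries working chloroplasts while it lays down storage protein and oil, and late embryogenesis abundant proteins build up as the seed prepares to dry.

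Values are log2 signals per probe set, a set of short probes for one transcript or a group of alike transcripts, and a difference of 1 is a change of 2 times. The table used here held 16383 probe sets, to which all shares and ranks refer and beyond which the array may hold others, and the 11481 of them with a mean log2 signal above 4 over the 26 arrays were tested. The median log2 signal over those probe sets lay between 7.46 and 7.62 on the night arrays and between 7.56 and 7.71 on the day arrays. Each group held 2 arrays with a low and 2 with a high lowest signal, so the array background was balanced between the groups. The 2 replicates of a time correlated at r of 0.988 to 0.991 over the probe sets tested, with 0 identical values. Levels of markers of other tissues overlapped between the groups for the seed coat list, whose 6 probe sets summed to log2 signals of 15.48 to 15.88 at night and 15.12 to 15.78 by day. Those of 2 pod and leaf storage genes also overlapped, at 6.88 to 8.19 and 6.04 to 7.01, as did those of 4 nodule and root genes, at 12.35 to 12.67 and 11.81 to 12.56. Overlap does not mean equal levels. The median night minus day difference was 0.33 log2 for the seed coat list, with 4 of 6 probe sets higher. It was 0.95 for the pod and leaf genes, with 2 of 2 higher, and 0.04 for the nodule and root genes, with 2 of 4 higher. In whole seeds, fewer cells of a type and less RNA per cell cannot be told apart.

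Few transcripts differed between early night and early day past the threshold, a Benjamini-Hochberg adjusted p under 0.05 in a limma fit of all 13 times. They were 20 of 11481 probe sets (0.174%), 14 higher at night (0.122%) and 6 lower (0.0523%). The higher ones changed by 1.41 to 3.05-fold, with a median of 1.76-fold, and the lower ones by 1.47 to 2.14-fold, with a median of 1.60-fold. Of the 20 probe sets 9 carried 1 gene symbol, each of them a locus number without a described function in the annotation used here, and 1 more resolved to SOYSTGA. The remaining 10 had several symbols or none, and the 20 came from 18 probe clusters (a cluster is marked by the first number of the ID). At an unadjusted p under 0.05 there were 389 higher (3.39%) and 1099 lower (9.57%) probe sets. The median difference over all probe sets tested was -0.08 log2, with 68.0% of them lower at night. This balance moved with the scaling of the arrays: after a further quantile normalization 110 probe sets passed as higher and 19 as lower, and with the arrays centred on their medians 119 and 9. With the array background as a block the count was 45 (0.392%), including all 20, and at a threshold of 0.1 it was 89 (0.775%). Night and day arrays did not overlap for 12 of the 14 higher probe sets and 6 of the 6 lower, where over all probe sets 1.67% lay without overlap above and 4.22% below. The 20 were chosen for their difference on these same 8 arrays, so this separation describes them and tests nothing. The count was lower when any 1 of the 8 arrays was left out. It was 0 for each of 3 removals (28h replicate 1, then 40h replicate 1, then 64h replicate 2) and 1 for each of 2 (40h replicate 2, then 52h replicate 2). Removing 64h replicate 1 left 2 probe sets, removing 28h replicate 2 left 4, and removing 52h replicate 1 left 6. No call among the 20 held in all of these fits, and 5 held in at least 1 of them.

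**Figure D1:**
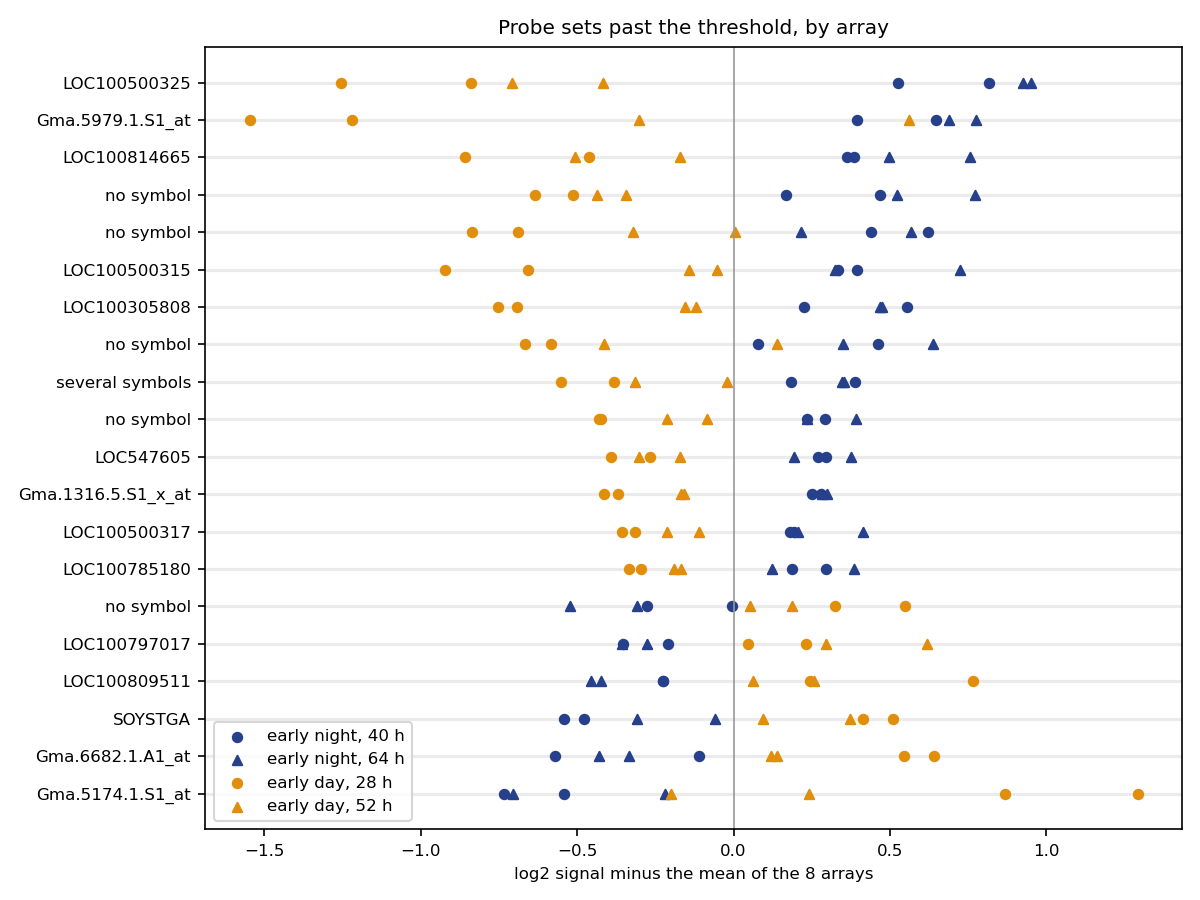
Log2 signal of the 20 probe sets past the threshold on each of the 8 arrays, drawn as the difference from the mean of the 8 (x axis, log2), with night arrays in blue, day arrays in orange, circles for 28 and 40 h and triangles for 52 and 64 h. The night and day arrays do not overlap in 18 of the 20 rows, and in Gma.5979.1.S1_at 1 day array of 52 h lies among the night arrays.

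Among the transcripts higher at night, LOC100500325 had the smallest p. Its log2 signals were 5.50 and 5.21 at 40 h and 5.64 and 5.61 at 64 h, against 3.43 and 3.85 at 28 h and 3.98 and 4.27 at 52 h. Every night array lay above every day array, and both nights were alike. The means were 5.49 ± 0.19 (SD, n = 4) at night and 3.88 ± 0.35 (SD, n = 4) by day, a difference of 1.61 ± 0.21 (SE) log2 with a 95% confidence interval of 1.17 to 2.05 (3.05-fold, limma adjusted p = 0.00656). This is a weak signal near the filter. Its mean over the 26 arrays, 4.42, was the lowest of the 14 higher probe sets, and its day mean lay under the filter value of 4. Averaged by time of day over the whole course, its mean was 3.93 at 12 h after subjective dawn, 5.49 at 16 h and 4.66 at 20 h. Its call held in 5 of the 8 fits with 1 array left out. It ended without 28h replicate 1 (limma adjusted p = 0.0857), 40h replicate 1 (limma adjusted p = 0.0676) or 64h replicate 2 (limma adjusted p = 0.0566). This was also the single probe set called when the fit used the 8 arrays alone or took in every probe set of the table.

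LOC100814665 was higher in the same way in both cycles. It had log2 signals of 8.35 and 8.38 at 40 h and 8.75 and 8.49 at 64 h, and of 7.13 and 7.53 at 28 h and 7.48 and 7.82 at 52 h. The groups did not overlap, and the difference was 1.0 ± 0.18 (SE) log2 (2.0-fold, limma adjusted p = 0.0414), with 1.03 in the first cycle and 0.97 in the second.

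LOC100500315 and LOC100305808 differed more in the first cycle than in the second. For LOC100500315 the log2 signals were 6.98 and 7.04 at 40 h, 6.97 and 7.37 at 64 h, 5.99 and 5.72 at 28 h and 6.50 and 6.59 at 52 h. For LOC100305808 they were 7.95 and 7.63 at 40 h, 7.87 and 7.88 at 64 h, 6.65 and 6.71 at 28 h and 7.28 and 7.25 at 52 h. In both genes the night signals of the 2 cycles were close and the day signals were higher at 52 h than at 28 h, with no overlap of night and day. The differences were 0.89 ± 0.17 (SE) log2 for LOC100500315 (1.85-fold, limma adjusted p = 0.0445) and 0.86 ± 0.16 (SE) for LOC100305808 (1.82-fold, limma adjusted p = 0.0372).

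The brightest of the called transcripts was that of LOC547605, with log2 signals of 13.89, 13.86, 13.78 and 13.97 at night and 13.32, 13.20, 13.29 and 13.42 by day. The 4 night values lay within a narrow band above all day values. Its difference was 0.57 ± 0.10 (SE) log2 (1.48-fold, limma adjusted p = 0.0364). A second probe set of this gene, Gma.289.1.S1_x_at, also differed by 0.57 log2 but narrowly missed the threshold (limma adjusted p = 0.0521), and 3 others for the same symbol differed by -0.18, 0.35 and -0.08 and did not pass either. LOC100785180 and LOC100500317, named after their values were seen because they were not the brightest probe sets of their genes, rose by 0.49 and 0.50 log2 (limma adjusted p = 0.0372 and 0.0445).

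Among the probe sets without a gene symbol, Gma.5979.1.S1_at had the second largest difference past the threshold. It gave 7.94 and 7.69 at 40 h, 7.98 and 8.07 at 64 h, 5.75 and 6.07 at 28 h, and 7.85 and 6.99 at 52 h. The day value of 7.85 from 52h replicate 1 lay within the night range, so the groups overlapped. The difference was 1.25 ± 0.19 (SE) log2 (2.38-fold, limma adjusted p = 0.0199). Gma.1316.5.S1_x_at had tight groups, with 10.10, 10.13, 10.13 and 10.15 at night and 9.48, 9.43, 9.69 and 9.68 by day. Its difference was 0.55 ± 0.09 (SE) log2 (1.47-fold, limma adjusted p = 0.0335). It is 1 of 3 called probe sets of its cluster, another being LOC100500317, so these 3 are not independent of one another.

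SOYSTGA, a TGA-type bZIP transcription factor of the family that binds TGACG elements and is known in Arabidopsis for salicylic acid and stress responses, had log2 signals of 5.57 and 5.63 at 40 h and 6.05 and 5.80 at 64 h. By day they were 6.62 and 6.52 at 28 h and 6.20 and 6.48 at 52 h. No night value reached the lowest day value, and the gap was wider in the first cycle. The means were 5.76 ± 0.22 (SD, n = 4) and 6.46 ± 0.18 (SD, n = 4), a fall of 1.62-fold, or -0.69 ± 0.11 (SE) log2 (limma adjusted p = 0.0199). The call held without 52h replicate 1 or 64h replicate 1 and ended without any 1 of the other 6 arrays, where the limma adjusted p reached 0.134. The name was given after the values were seen, because both symbols listed for the probe set lead to 1 RefSeq gene.

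LOC100809511 and LOC100797017 also fell. LOC100809511 gave 9.59, 9.59, 9.36 and 9.40 at night against 10.58, 10.06, 10.07 and 9.88 by day (-0.66 ± 0.11 SE, 1.59-fold, limma adjusted p = 0.0364). LOC100797017 gave 7.58, 7.44, 7.52 and 7.44 against 7.84, 8.03, 8.09 and 8.41 (-0.60 ± 0.11 SE, 1.51-fold, limma adjusted p = 0.0372). Neither gene had overlapping groups, and LOC100797017 was the 1 of the 6 lower probe sets whose difference was larger in the second cycle, at -0.77 log2 against -0.42.

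Of the lower probe sets without a symbol, Gma.5174.1.S1_at fell furthest, with 5.52 and 5.33 at 40 h, 5.84 and 5.36 at 64 h, 7.35 and 6.93 at 28 h and 6.30 and 5.86 at 52 h. Its highest night value, 5.84, lay only just under its lowest day value, 5.86, and most of the gap came from 28 h. The difference was -1.10 ± 0.20 (SE) log2 (2.14-fold, limma adjusted p = 0.0414), made up of -1.72 in the first cycle and -0.48 in the second. Gma.6682.1.A1_at fell by 0.72 ± 0.13 (SE) log2 (1.65-fold, limma adjusted p = 0.0372), without overlap. The weakest calls had a limma adjusted p of 0.0445, and the first probe sets beyond the threshold, among them LOC100527180 with a difference of -0.92 ± 0.18 (SE), had 0.0521.

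Seeds collected 4 h later differed in the same directions. Late subjective night, at 44 and 68 h, was set against midday, at 32 and 56 h, in the same fit. The means of the 2 comparisons come from different arrays, but both use the same SE for a probe set, estimated from all 13 times, so the calls of one are not independent of those of the other. All 20 probe sets differed in the same direction there, and 12 of the 20 passed, 11 of the 14 higher and 1 of the 6 lower. Over all probe sets 62 passed in that comparison (0.540%), 61 higher (0.531%) and 1 lower (0.00871%), and 0 of the 62 had a gene name other than a locus number. LOC100814665 differed by 1.02 log2 in late night (limma adjusted p = 0.0141) and Gma.5979.1.S1_at by 1.33 (limma adjusted p = 0.00737). LOC100797017, the lower probe set that passed in both, differed by -0.59 (limma adjusted p = 0.0141). LOC100500325 differed by 0.62 in late night and did not pass there (limma adjusted p = 0.315), and SOYSTGA by -0.45 (limma adjusted p = 0.0688). The difference between the early and the late comparison itself passed for 0 probe sets by limma, with 147 at an unadjusted p under 0.05 (1.28%) and a smallest limma adjusted p of 1.0. The 12 became 2 without 68h replicate 2, 4 without 32h replicate 1 or 44h replicate 1 and 5 without 32h replicate 2. The count of 62 was 5 after removal of 68h replicate 2, 11 and 15 after that of either array of 32 h (replicates 1 and 2), 14 and 28 after that of either array of 44 h, and 36 after that of 56h replicate 2.

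**Figure D2:**
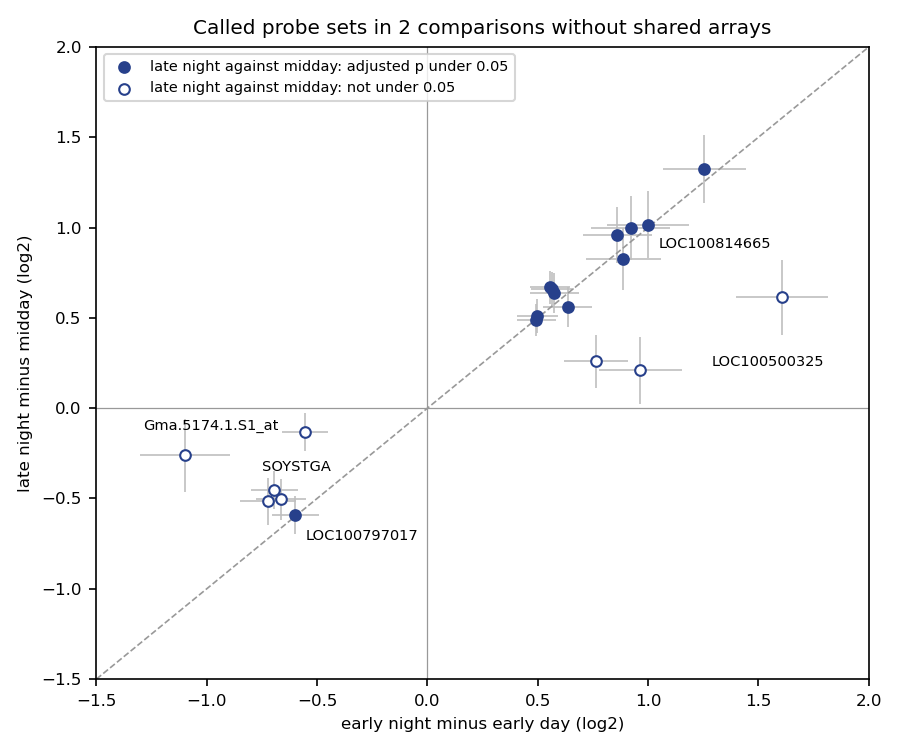
Difference of each of the 20 called probe sets between early night and early day (x axis, log2) and between late night and midday (y axis, log2), with bars of 1 SE, filled where the limma adjusted p in late night was under 0.05, and a dashed line of equal differences. All 20 points lie on the same side of 0 on both axes, 12 of them filled, and LOC100500325 lies furthest right, at 1.61 early and 0.62 late.

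Averaged over the 6 times of day sampled, 11 of the 14 higher probe sets peaked at 16 h after subjective dawn and the other 3 at 20 h. Their lowest means fell at 4 h for 6, at 8 h for 7 and at 12 h for 1. Of the 6 lower probe sets 5 were highest at 4 h and 5 lowest at 16 h. Both of these times entered the choice of the probe sets, so these peaks describe the 20 and test nothing.

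The same contrast was also read in each cycle alone. Between 40 and 28 h 51 probe sets passed by limma (0.444%), 24 higher (0.209%) and 27 lower (0.235%), and between 64 and 52 h 0 passed, with 986 at an unadjusted p under 0.05 (8.59%), 117 higher (1.02%) and 869 lower (7.57%), and a smallest limma adjusted p of 0.444. The difference between the cycles, tested directly, passed for 0 probe sets by limma, with 772 at an unadjusted p under 0.05 (6.72%) and a smallest limma adjusted p of 0.209. All 20 called probe sets had the same direction in both cycles, with a larger difference in the first cycle for 13 of the 14 higher and 5 of the 6 lower. The median of the higher probe sets was 0.89 log2 in the first cycle and 0.58 in the second, and that of the lower -0.83 and -0.52. For 3 of the 20 the cycles differed at an unadjusted p under 0.05, namely Gma.5979.1.S1_at, SOYSTGA and Gma.5174.1.S1_at. The 51 became 0 without 28h replicate 1, without 28h replicate 2 and without 40h replicate 1, and 8 without 40h replicate 2. With the array background as a block they became 166.

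Of the 51 probe sets of the first cycle 13 had a descriptive gene name. Some of these 13, but not all, are given here, chosen after their values were seen. PGMPM18, which bears the name of a seed maturation protein, gave 6.10 and 6.49 at 40 h against 9.76 and 9.10 at 28 h, a difference of -3.13 ± 0.66 (SE) log2 (8.77-fold, limma adjusted p = 0.0476). PM13, another seed maturation gene, fell by 2.64 ± 0.55 (SE, limma adjusted p = 0.0428) and SLE2, a late embryogenesis abundant protein gene, by 2.02 ± 0.42 (SE, limma adjusted p = 0.0428). At 64 against 52 h the same 3 genes differed by 0.42, -0.17 and 0.40 log2 and did not pass. BG7S-2, a basic 7S globulin gene, fell by 2.50 ± 0.48 (SE, limma adjusted p = 0.0350) in the first cycle and differed by 0.13 in the second. SFERH-2, a ferritin subunit gene whose product stores iron in plastids, had 3 probe sets that fell, the largest from 8.95 and 9.33 at 28 h to 6.69 and 6.24 at 40 h (-2.68 ± 0.47 SE, limma adjusted p = 0.0298). GASA4, a small cysteine-rich peptide gene of the gibberellin-responsive GASA group, rose by 2.38 ± 0.44 (SE, limma adjusted p = 0.0307), and CPX, a name used for coproporphyrinogen oxidase of the tetrapyrrole pathway, by 0.89 ± 0.19 (SE, limma adjusted p = 0.0490). None of these genes, SFERH-2, GASA4 and CPX included, passed at 64 against 52 h. None of them passed the test of a difference between the cycles either (smallest limma adjusted p of all probe sets 0.209).

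**Figure D3:**
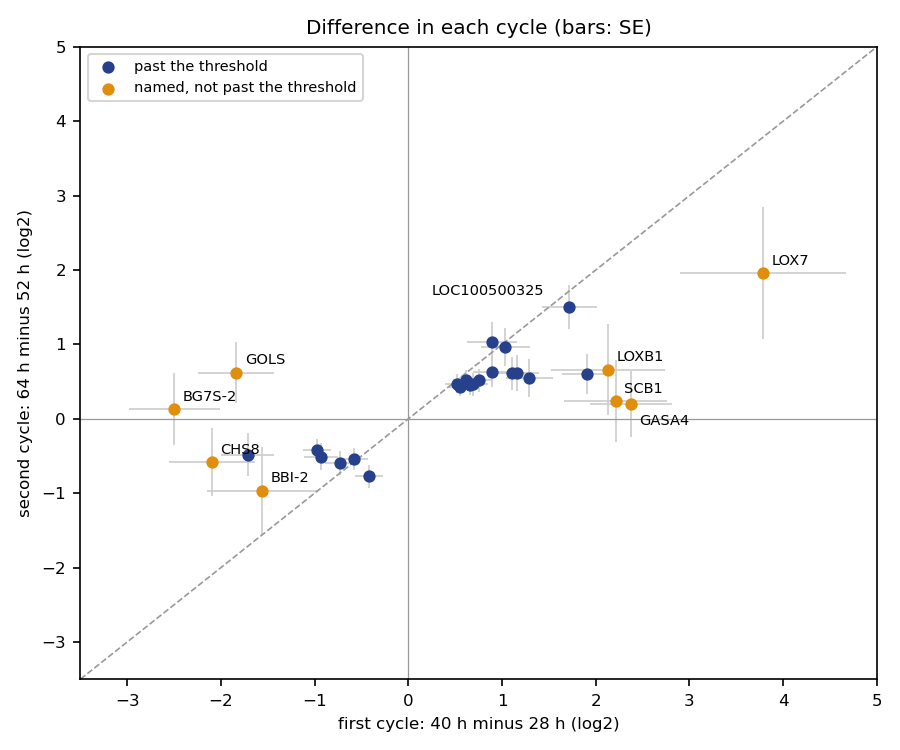
Difference of 40 minus 28 h (x axis, log2) and of 64 minus 52 h (y axis, log2) for the 20 called probe sets in blue and 8 named genes that did not pass in the comparison of both cycles in orange, with bars of 1 SE and a dashed line of equal differences. GASA4, at 2.38 and 0.20, and BG7S-2, at -2.50 and 0.13, lie far from the line, while LOC100500325, at 1.72 and 1.5, lies close to it.

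Lipoxygenases, which oxidize polyunsaturated fatty acids on the way to oxylipins such as jasmonate and serve as seed or vegetative storage proteins in soybean, held the largest differences of all but no call. LOX7 gave 8.19 and 9.77 at 40 h and 9.18 and 8.68 at 64 h, against 4.19 and 6.20 at 28 h and 6.11 and 7.83 at 52 h. All night values lay above all day values, but the day arrays spanned more than 3 log2. The means were 8.95 ± 0.67 (SD, n = 4) and 6.08 ± 1.49 (SD, n = 4), and the difference of 2.87 ± 0.62 (SE) log2, with a 95% confidence interval of 1.56 to 4.19, ranked 1 among all probe sets (7.34-fold, limma adjusted p = 0.0732). Its other probe set, which ranked 2, differed by 2.63 ± 0.58 (SE; 6.19-fold, limma adjusted p = 0.0764). LOX7 passed with the array background as a block (limma adjusted p = 0.0256) and after quantile normalization (limma adjusted p = 0.0323). LOX9 had differences of 1.12 and 1.0 log2 on its 2 probe sets and LOXB1, a vegetative lipoxygenase counted among the pod and leaf markers, 1.40 ± 0.43 (SE; limma adjusted p = 0.170). The abundant seed lipoxygenases LOX1.1, LOX2 and LOX3 had differences of 0.06, 0.06 and -0.09 log2. The 11 probe sets had a median of 0.68 log2 with 8 higher, or 6 higher after quantile normalization, and 5 higher and 0 lower at an unadjusted p under 0.05. Of all probe sets 32.0% were higher, and at that p 3.39% were higher and 9.57% lower. After quantile normalization 47.5% of all probe sets were higher. The sum of the pod and leaf markers was highest on 40h replicate 2, where LOX7 was also highest. At 28, 40 and 52 h the replicate with the higher sum also had the higher LOX7 signal. At 64 h the order was opposite, with LOX7 at 9.18 and 8.68 and the sum at 6.88 and 7.58 on replicates 1 and 2. LOXB1 is itself in that sum, and the part of these markers in this result was not tested.

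**Figure D4:**
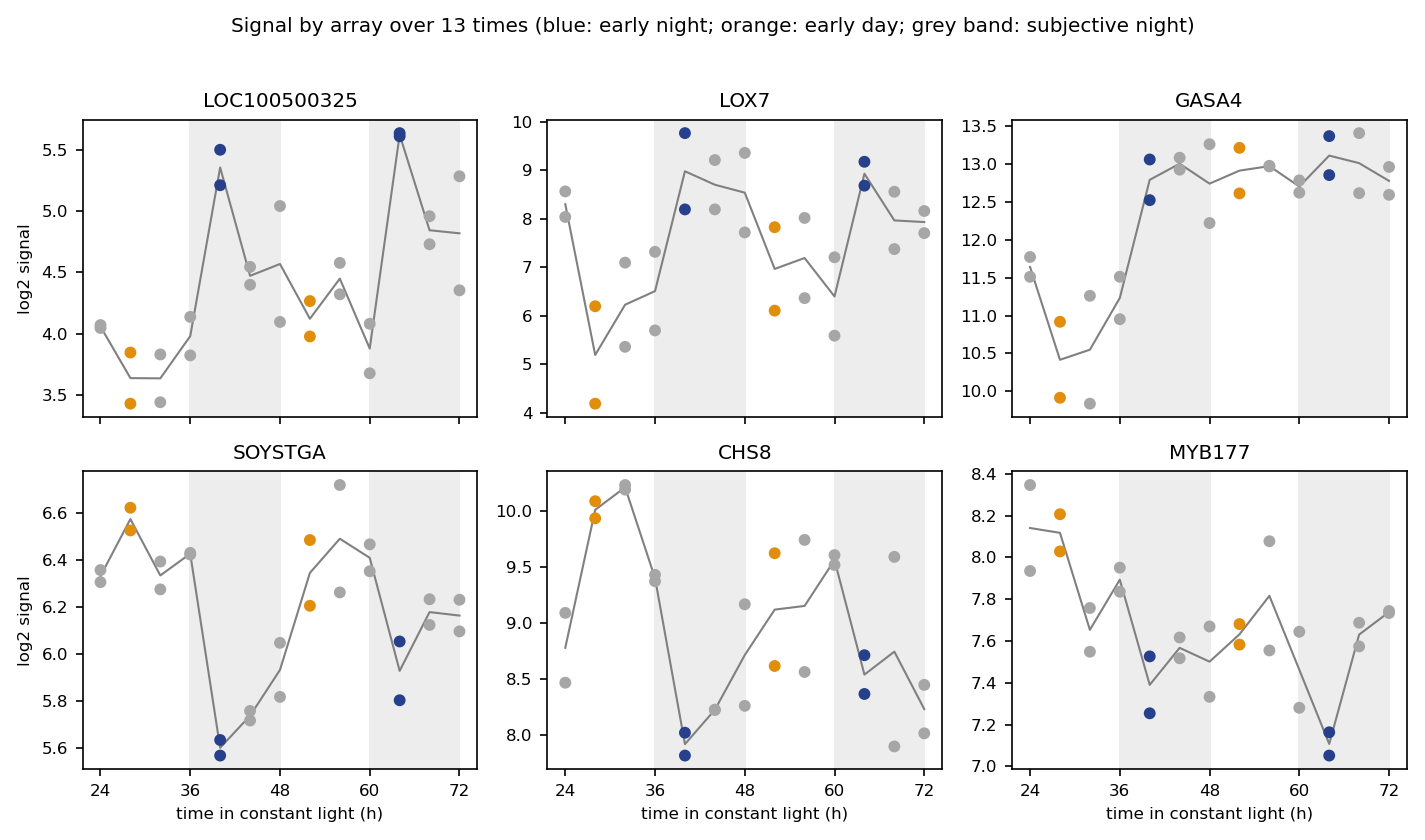
Log2 signal (y axis) of 6 genes on all 26 arrays against time in constant light (x axis, hours), with the night arrays in blue, the day arrays in orange, other arrays in grey, lines through the means of 2 arrays per time and grey bands for subjective night. LOC100500325 and LOX7 were high at 40 and 64 h, SOYSTGA and MYB177 were low at both, CHS8 was low at both and spread widely in the second day, and GASA4 went up between 36 and 40 h and stayed above 12 from there on.

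Genes of photosynthesis had higher means at night, each by less than 1 log2, and 0 of them passed. The list of thylakoid light reactions had 8 of 8 probe sets higher, with a median of 0.50 log2 and 7 at an unadjusted p under 0.05, and kept that direction under both scalings. Over all probe sets 32.0% were higher and 3.39% were higher at that p. LHCP, a light-harvesting chlorophyll protein, gave 10.48, 10.51, 9.68 and 10.48 at night and 9.41, 8.97, 9.52 and 10.04 by day (0.81 ± 0.24 SE, limma adjusted p = 0.161). The night value of 9.68 from 64h replicate 1 lay within the day range. CAB3, a chlorophyll a/b-binding protein, differed by 0.45 and 0.43 on its 2 probe sets, ELIP, an early light-induced protein, by 0.71, ATPC, a subunit of the chloroplast ATP synthase, by 0.56 and PSAD, of photosystem I, by 0.23 and 0.21.

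The carbon fixation list also kept its direction under both scalings, with 5 of 5 probe sets higher, a median of 0.38 log2 and 5 at an unadjusted p under 0.05. The shares over all probe sets were 32.0% higher and 3.39% higher at that p. RCA14, a Rubisco activase, which frees the active site of Rubisco from bound sugar phosphates, gave 11.15, 11.21, 11.17 and 11.15 at night and 10.53, 10.73, 10.54 and 10.91 by day. The night values were nearly identical, and all lay above the day values, by 0.49 ± 0.13 (SE) log2 on average (limma adjusted p = 0.123, or 0.0428 after quantile normalization). FBP, named for fructose bisphosphatase, differed by 0.50 ± 0.14 (SE; limma adjusted p = 0.143, or 0.0264 after quantile normalization), also without overlap. The 4 probe sets of both Rubisco activase genes belong to 1 probe cluster and are not independent. Tetrapyrrole and carotenoid genes had a median of 0.10 over 4 probe sets, and the 6 ribosomal protein probe sets one of 0.08, with 0 past an unadjusted p of 0.05 in each.

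Chalcone synthase, which makes the chalcone scaffold of all flavonoids, had the lowest median of any list. The 4 probe sets, all of CHS8, had a median of -1.24 log2, with 4 of 4 lower in each scaling, 3 at an unadjusted p under 0.05 and 0 called. Their differences ran from -1.34 to -0.29 log2, and as probe sets of 1 gene they are not independent. Of all probe sets 68.0% were lower and 9.57% were lower at that p. CHS8 gave 8.02 and 7.82 at 40 h and 8.71 and 8.37 at 64 h, against 10.09 and 9.94 at 28 h and 9.63 and 8.62 at 52 h. The groups overlapped only through 52h replicate 2, which lay below 64h replicate 1. The difference was -1.34 ± 0.32 (SE) log2 (2.53-fold, limma adjusted p = 0.0980), with -2.10 in the first cycle and -0.58 in the second. PAL2.1, a phenylalanine ammonia-lyase, which opens the phenylpropanoid pathway, differed by -0.67 ± 0.19 (SE; limma adjusted p = 0.129) and CHI1A, a chalcone isomerase, by -0.49. The 26 probe sets of other flavonoid and isoflavonoid enzymes, including the isoflavone synthases IFS1 and IFS2 at -0.20 and -0.27, had a median of 0.01, with 14 higher and 12 lower and 3 lower at an unadjusted p under 0.05.

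Transcription factors of 3 lists mostly had lower means at night. The bZIP list had 37 of 40 probe sets lower, a median of -0.20 log2 and 7 at an unadjusted p under 0.05, the MYB list 24 of 28, -0.14 and 4, and the list of NAC and WRKY factors 21 of 24, -0.15 and 2. Over all probe sets 68.0% were lower, 9.57% were lower at that p and the median was -0.08. After quantile normalization the medians of the 3 lists were -0.11, -0.06 and -0.05. The probe sets lower at an unadjusted p under 0.05 were then 3, 2 and 2, and with centred arrays 1, 2 and 2. Those lower at any p were 34, 21 and 16 after quantile normalization and 33, 21 and 16 with centred arrays. Over all probe sets the shares lower were 52.4% and 46.0% in these scalings, with medians of -0.01 and 0.02. At an unadjusted p under 0.05, 610 and 405 of all 11481 were lower. MYB177 came nearest to the threshold, with 7.53, 7.25, 7.05 and 7.16 at night and 8.21, 8.03, 7.58 and 7.68 by day, without overlap (-0.63 ± 0.13 SE, limma adjusted p = 0.0688, or 0.0239 after quantile normalization). NAC109 differed by -0.50 ± 0.13 (SE; limma adjusted p = 0.114) and BZIP121 by -0.42 (limma adjusted p = 0.226). SOYSTGA, the 1 called probe set with the name of such a factor, stood outside these lists because of its 2 listed symbols.

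Of the core clock genes on the list LHY alone had probe sets above the signal filter in the table used here, and genes on probe sets outside that table were not analysed here. LHY lay near that filter, at 4.63 ± 0.26 (SD, n = 4) at night and 4.81 ± 0.64 (SD, n = 4) by day on one probe set (-0.18 ± 0.23 SE, limma adjusted p = 0.797) and at 4.35 ± 0.34 and 4.31 ± 0.32 on the other (0.04 ± 0.22 SE, limma adjusted p = 0.963). Night and day values overlapped on both. The 4 probe sets for light signalling, of the CONSTANS-like gene COL10, the cryptochrome CRY1c1, the photomorphogenesis gene COP10 and the phytochrome PHYA, were all lower at night, by 0.05 to 0.38 log2, with 3 of 4 lower after quantile normalization and 0 at an unadjusted p under 0.05. Over all probe sets 68.0% were lower at night, with a median difference of -0.08 log2. After quantile normalization that share was 52.4%.

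Seed maturation and desiccation genes had opposite list medians in the 2 cycles, and the difference between cycles passed for 0 of them. The 33 probe sets had a median of -0.24 log2, with 25 lower (75.8%, against 68.0% of all probe sets) and 12 of those at an unadjusted p under 0.05 (against 9.57% of all). After quantile normalization 31 were lower, 7 at that p, and with centred arrays 22 and 3. Over all 11481 probe sets 52.4% were lower after quantile normalization, 610 of them at that p. With centred arrays 46.0% of all were lower, 405 of them at that p. Their median was -0.79 in the first cycle and 0.23 in the second. MAT1 differed by -4.54 in the first and 1.32 in the second, PM3 by -1.97 and 0.47, and PM13 by -2.64 and -0.17. The summed log2 signal of this list overlapped between the groups, at 18.22 to 18.58 at night and 18.14 to 18.61 by day, and was highest on the 2 arrays of 28 h among the 4 day arrays. GOLS, a galactinol synthase of the raffinose pathway, also differed in sign between the cycles, with 5.17 and 5.4 at 40 h, 6.30 and 5.55 at 64 h, 7.46 and 6.79 at 28 h and 5.46 and 5.16 at 52 h (-1.84 in the first cycle, 0.62 in the second, limma adjusted p = 0.385 over both). BG7S-2 had 10.52, 11.08, 12.33 and 11.56 at night and 13.47, 13.13, 12.31 and 11.32 by day, with overlap (-1.18 ± 0.34 SE, limma adjusted p = 0.146).

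Storage lists had medians near 0. The 11 probe sets of storage globulins had a median of 0.07 log2, or 0.00 after quantile normalization, and those of the glycinins GY1, GY2 and GY5 differed by 0.04 to 0.13. The 18 of oil bodies and fatty acid synthesis had a median of 0.07, the 13 of starch, sucrose and galactosides 0.03 and the 20 of antioxidant and cold genes 0.01, each with 0 called. Among protease inhibitors the Bowman-Birk inhibitor gene BBI-2 differed by -1.26 ± 0.42 (SE; limma adjusted p = 0.199), while the median of the 9 probe sets was 0.07, or -0.01 after quantile normalization.

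**Figure D5:**
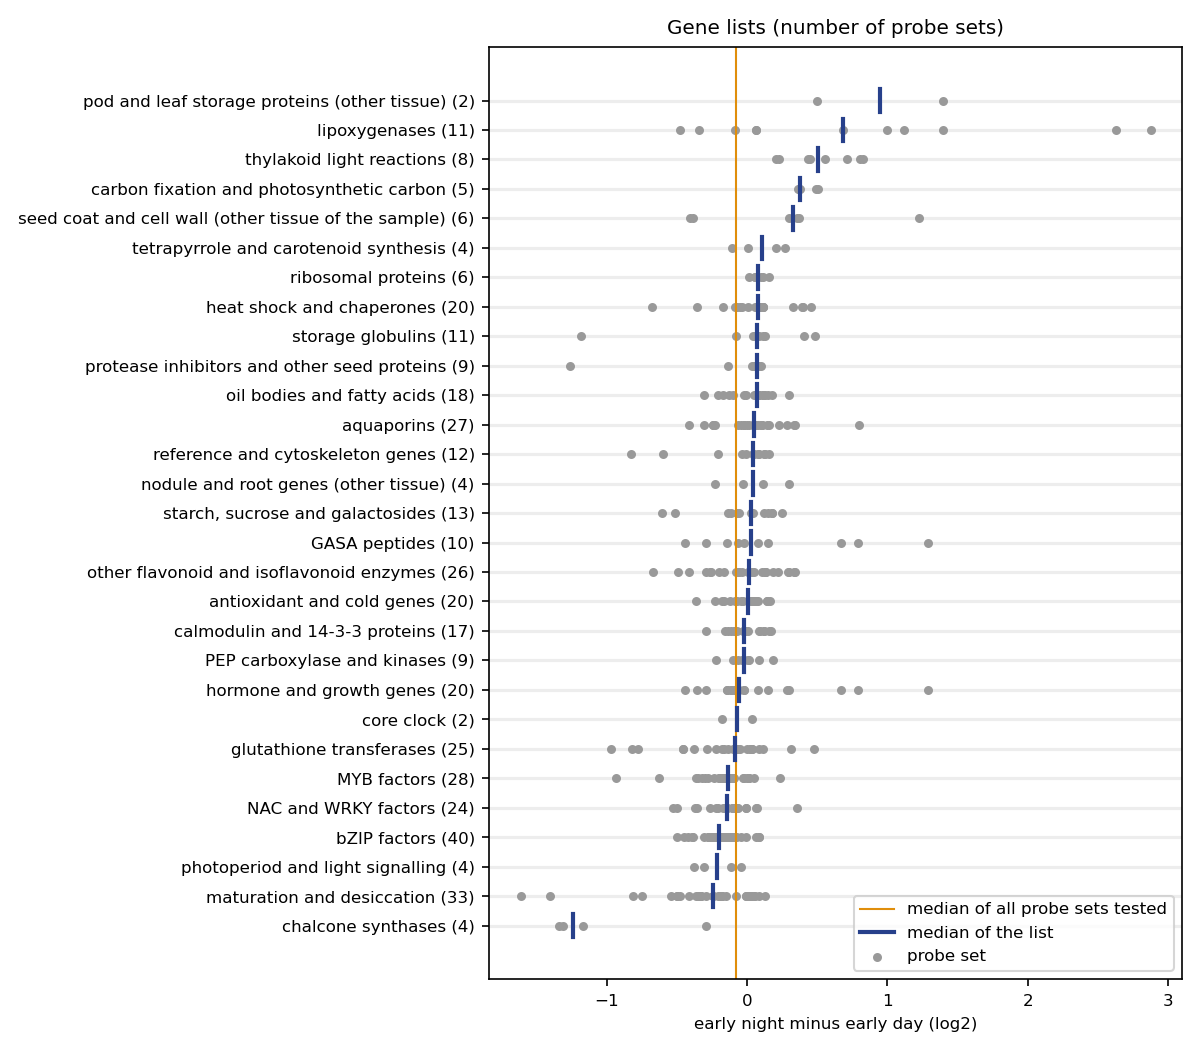
Difference between early night and early day (x axis, log2) of every probe set tested in 29 gene lists (grey points, number of probe sets in brackets), with the median of each list in blue and that of all probe sets, -0.08, in orange. Chalcone synthases lie lowest, at -1.24, and lipoxygenases and both photosynthesis lists lie to the right, at 0.68, 0.50 and 0.38.

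The median was -0.03 log2 for 9 probe sets of PEP carboxylase and its kinases and -0.02 for 17 of calmodulins and 14-3-3 proteins, or 0.07 and 0.01 after quantile normalization. It was -0.06 for 20 of hormone and growth genes, or 0.04 with centred arrays, and 0.04 for 12 of reference and cytoskeleton genes, of which TUBB3, a tubulin gene, differed by -0.60 (limma adjusted p = 0.0991).

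Stress and transport genes showed single members apart from their lists. SIP1-6, an aquaporin of the small basic intrinsic type, gave 5.74, 5.66, 5.31 and 5.84 at night and 4.92, 4.64, 4.73 and 5.08 by day, without overlap (0.80 ± 0.17 SE, 1.74-fold, limma adjusted p = 0.0732, or 0.0134 after quantile normalization), while the 27 aquaporin probe sets had a median of 0.05. The glutathione transferases, which conjugate reactive compounds for storage in the vacuole, had 17 of 25 lower, a median of -0.09 (0.01 with the arrays centred on their medians) and 7 lower at an unadjusted p under 0.05, or 4 with centred arrays. That share of lower probe sets, 68.0%, was the same as over all probe sets, of which 9.57% were lower at that p. With centred arrays 12 of the 25 were lower, against 46.0% of all 11481 probe sets, of which 405 were lower at that p. GSTU13 differed by -0.78 ± 0.18 (SE; limma adjusted p = 0.0948) and GSTL7 by -0.46 ± 0.11 (SE; limma adjusted p = 0.0980, or 0.0410 after quantile normalization). The 20 probe sets of heat shock and chaperone genes had a median of 0.07, with 13 higher (against 32.0% of all) and 0 called. At an unadjusted p under 0.05, 4 were higher and 2 lower, against 3.39% and 9.57% of all. After quantile normalization 16 were higher (47.5% of all) and 1 was called as higher (110 of all 11481). With centred arrays 17 were higher (54.0% of all) and 2 were called as higher (119 of all). The smallest p in the main fit was that of the heat shock factor HSF-33, with a difference of -0.68 ± 0.18 (SE; limma adjusted p = 0.111). Chosen after their values were seen, the 2 probe sets of BIP4, a binding protein gene, differed by 0.39 and 0.46 and did not pass. GASA4 gave 12.53 and 13.06 at 40 h, 13.37 and 12.86 at 64 h, 9.91 and 10.92 at 28 h and 12.61 and 13.22 at 52 h. Its day values of 52 h lay within the range of its night values, and its difference over both cycles was 1.29 ± 0.31 (SE) log2 (limma adjusted p = 0.0974, or 0.0114 with the array background as a block). Among the seed coat markers SCB1 differed by 1.22 ± 0.39 (SE; limma adjusted p = 0.184), with 0.23 in the second cycle.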

How the data were processed

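The values the authors deposited are GCRMA signals, per the submitters' processing notes, which name no version. Their range shows the deposited scale to be log2. GCRMA pulls low signals to a floor, which can compress changes of weak transcripts. Precision is limited by the number of arrays. Of the 26 arrays, 8 entered the comparison. Samples were grouped by labelled time.

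Probe sets with a mean log2 above 4 were tested (11481 of 16383, 70.1%) with limma 3.58.1 in R 4.3.3, by lmFit on 13 times and eBayes (13 residual degrees of freedom), with Benjamini-Hochberg adjustment at 0.05 over all of them. Contrasts were early night against early day, each cycle, their difference, late night against midday and the difference from it. Lists are described without a test. Tested on simulated data with 11481 probe sets, 32% of 100 changes of 0.5 log2 and 85% of 100 of 1 log2 were found, and 4.88% of calls were false. These rates describe the simulated data, and whether they hold for the real arrays was not tested.

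Symbols came from the platform annotation, which gave 5002 probe sets a single symbol, 217 more than one and 11164 no symbol; 4989 were found in RefSeq's Glycine_max_v4.0 table. No coordinates or sequences are given, and the planned promoter motifs were not analysed here. Probe sets named were, with 1 symbol and the brightest of their gene, up to 15 a direction by largest difference past the threshold, filled up by smallest p; each list's member of smallest p; LHY; LOX7, CHS8, RCA14, FBP, GOLS and BG7S-2; and at most 2 without a symbol a direction. Others are named as examples of their list. The comparison, the lists and this rule were chosen with earlier results of these data known. Replicate numbers did not pair the samples: deviations of same-numbered samples correlated at -0.34 to 0.52 between times. Those of arrays alike in background correlated at 0.094 to 0.52, positive for all 6 pairs of times, and the fit with that background as a block is given where it moves a count. Alternatives covered filter, scaling, variance moderation, blocks and arrays left out.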

Additional observations from a re-analysis of the deposited data

Results flagged for a closer look

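Among 122 groups of 4 arrays of the named probe sets, 3 held an array far from the other 3 by Dixon's criterion, where chance gives about 1 in 20 groups, or 6.1. LHCP, the light-harvesting chlorophyll protein gene, had a log2 signal of 9.68 on 64h replicate 1, against 10.48 to 10.51 on the other night arrays. GSTL7, a glutathione transferase gene, had 11.97 on the same array, against 11.66 to 11.71. LOC100800870 had 10.22 on 40h replicate 1, against 10.04 to 10.07.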

How the results depend on the processing

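The count of 20 probe sets between early night and early day became 1 without the signal filter, 38 with a mean log2 above 6, 129 after quantile normalization, 61 with a variance trend and robust moderation, 1 with the 8 arrays alone, 45 with the array background as a block, 0 within the low floor and 0 within the high floor arrays, 0 for 40 h against the mean of 28 and 52 h, 0 for the mean of 40 and 64 h against 52 h, 1 with 6 times of day and linear time, 128 with the arrays centred on their medians (chosen after seeing the data) and 89 at a threshold of 0.1. It was 14 with 1 probe set per cluster. Leaving out 1 of the 8 arrays gave 0 to 6. The first cycle's count of 51 became 0 without the filter, 156 with a mean above 6, 138 after quantile normalization, 145 with trend and robust moderation, 8 with the 8 arrays alone, 166 with the array background as a block, 120 with centred arrays, and 0 to 69 with 1 array left out. With the replicate number as a block, a number that samples merely share, the count of 20 became 30 and the first cycle's became 109. The second cycle and the difference between early and late night kept a count of 0 in every fit run, and the difference between cycles one of 0 to 1, with 1 probe set each without 52h replicate 1 (Gma.2044.1.S1_at) or 64h replicate 2 (Gma.3963.2.S1_at). Of the 20, 2 to 14 also passed in late night against midday with 1 array left out. The causes of these moves were not tested. With 1 array left out LHY ranged from -0.39 to 0.039 on GmaAffx.1301.79.S1_at and from -0.15 to 0.23 on Gma.17697.1.S1_at. The sign turned for LHY on GmaAffx.1301.79.S1_at (0.039 without 28h replicate 1, 0.24 for the mean of 40 and 64 h against 52 h), on Gma.17697.1.S1_at (-0.02 without 28h replicate 1, -0.03 without 40h replicate 2, -0.15 without 52h replicate 1 and -0.12 without 64h replicate 1) and for GOLS (0.30 for the mean of 40 and 64 h against 52 h). The other values were those of named probe sets, list medians and the late night count. Of these, 1642 counted as the same, 65 passed newly, 167 no longer passed and 20 moved. A named probe set counted as the same where direction and side of the threshold held. A list median did so where it moved by less than its spread between replicates, whatever its sign. A count did so where it changed at most 1.5-fold. The median of hormone and growth genes, for one, turned from -0.06 to 0.04 with centred arrays. The late comparison cannot be fitted on the 8 arrays alone, which hold none of its times. The night arrays were on average 12 h later than the day arrays (52 against 40 h), so the comparison also carries part of any steady drift.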
